A study of Mus musculus with 14 samples.

Results

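Drd1, Drd2, Adora2a, Pde10a, Ppp1r1b, Penk, Tac1 and Syndig1l are 8 genes that mark the projection neurons of the striatum, and they are followed here through RNA of mouse cortex. They were taken by name, because the striatum lies directly beneath the cortex and tissue of it can come along in a dissection. The choice was made with earlier results of these data known. All 8 were among the 24444 genes listed for each of 2 mouse models, and all 8 passed the filter on low values in both. The question was whether they differ between mutant and wild-type cortex, and whether they move together from library to library, as RNA of a neighbouring tissue would.

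Striatal projection neurons are GABAergic cells that receive dopamine. Those of the direct pathway carry the D1 receptor and the peptide substance P, and those of the indirect pathway carry the D2 receptor, the adenosine receptor made from Adora2a and enkephalin. DARPP-32, PDE10A and SynDIG1-like protein are common to both pathways. None of these genes is exclusive to the striatum: deep-layer cortical neurons make D1 receptor and DARPP-32, and cortical interneurons make enkephalin and substance P, at lower levels.

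Polyadenylated RNA was sequenced from cortex of 14 mice in 4 groups. The miR29Nestin mice (n = 3, postnatal day 40) were floxed at both genomic clusters of the miR-29 microRNAs, miR-29ab1 and miR-29b2c, which were deleted with Nestin-Cre, a recombinase of neural progenitors and hence of cortical and striatal neurons and glia alike. The miR29WT mice (n = 3) had the same age, and the labels do not say whether they carried floxed alleles or Cre. Dnmt3a-mi5 mice (n = 4, 4.5 months) kept the microRNAs, but a CRISPR knock-in had mutated 5 miR-29 sites of the Dnmt3a 3′ UTR. They were set against Dnmt3a-WT mice (n = 4, 4.5 months). Dnmt3a is a DNA methyltransferase that acts on non-CG sites in maturing neurons.

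All 15 markers of cortical excitatory neurons were tested in both models, and their summed level was 27877 to 31176 normalised counts in miR29Nestin, 33853 to 36196 in miR29WT, 26258 to 29639 in Dnmt3a-mi5 and 28744 to 30616 in Dnmt3a-WT. A normalised count is a read count divided by the library's size factor, recovered here from the deposited log2 values. Reads in genes numbered 11.8 to 13.1 M per miR29Nestin library and 9.17 to 14.4 M per miR29WT library. The read depth of the Dnmt3a libraries is unknown. Those libraries fell into 2 sets, libraries 1 and 2 of each group and libraries 3 and 4 of each group, between which an effect had been removed before deposit. They are numbered by column order only.

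The sequences of the miR-29 family are shown because only 1 of the 8 genes, Pde10a, holds a match to them. The mature microRNAs, from RefSeq (GRCm38.p6), share a single seed, bases 2 to 8, given in capitals.
miR-29a-3p: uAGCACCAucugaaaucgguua
miR-29b-3p: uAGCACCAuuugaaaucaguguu
miR-29c-3p: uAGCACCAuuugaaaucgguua
Pde10a site: gctttgtgTGGTGCTgatgctgt
The capitals of the last line are the match to the seed, TGGTGCT, searched on the sense strand of the longest annotated 3′ UTR. It lies at chr17:8985049-8985055 on the plus strand (GRCm38, GENCODE M21), at position 3393 of a UTR of 4992 nucleotides, and is not followed by an A. Of the tested genes with an annotated 3′ UTR, 16.7% in the miR29 table and 17.0% in the Dnmt3a table held such a match. The match is a description of the sequence and not evidence of binding.

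The striatal genes varied within each group, by 1.52 to 4.21 times between its lowest and highest library, and they varied together. Mutant and wild-type libraries overlapped for all 8 in both models, whereas the groups did not overlap for 37.3% of all genes tested in the miR29 table and 12.0% in the Dnmt3a table. By limma with Benjamini-Hochberg adjustment, 0 of the 8 were called in miR29Nestin, against 19.1% of the 12014 genes tested (9.02% higher, 10.0% lower), and 0 of the 8 in Dnmt3a-mi5, against 0.797% of 10670 (0.225% higher, 0.572% lower). At an unadjusted p under 0.05 the counts were 0 of 8 in miR29Nestin and 4 of 8 in Dnmt3a-mi5, beside 33.0% and 19.0% of all genes tested. These counts depended on single libraries. In Dnmt3a-mi5 the count was 0 without Dnmt3a-mi5 library 1 or 3 or Dnmt3a-WT library 3, 1 without Dnmt3a-WT library 1 or 2, 6 without Dnmt3a-mi5 library 2, and 7 without library 4 of either group, and it was 0 with a robust variance prior. In miR29Nestin it was 1 without miR29Nestin library 1, 4 without miR29Nestin library 3, 2 without miR29WT library 1 and 3 with the replicate number as a block. In bulk RNA a change in the number of such cells and a change in RNA per cell cannot be told apart.

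**Figure D1:**
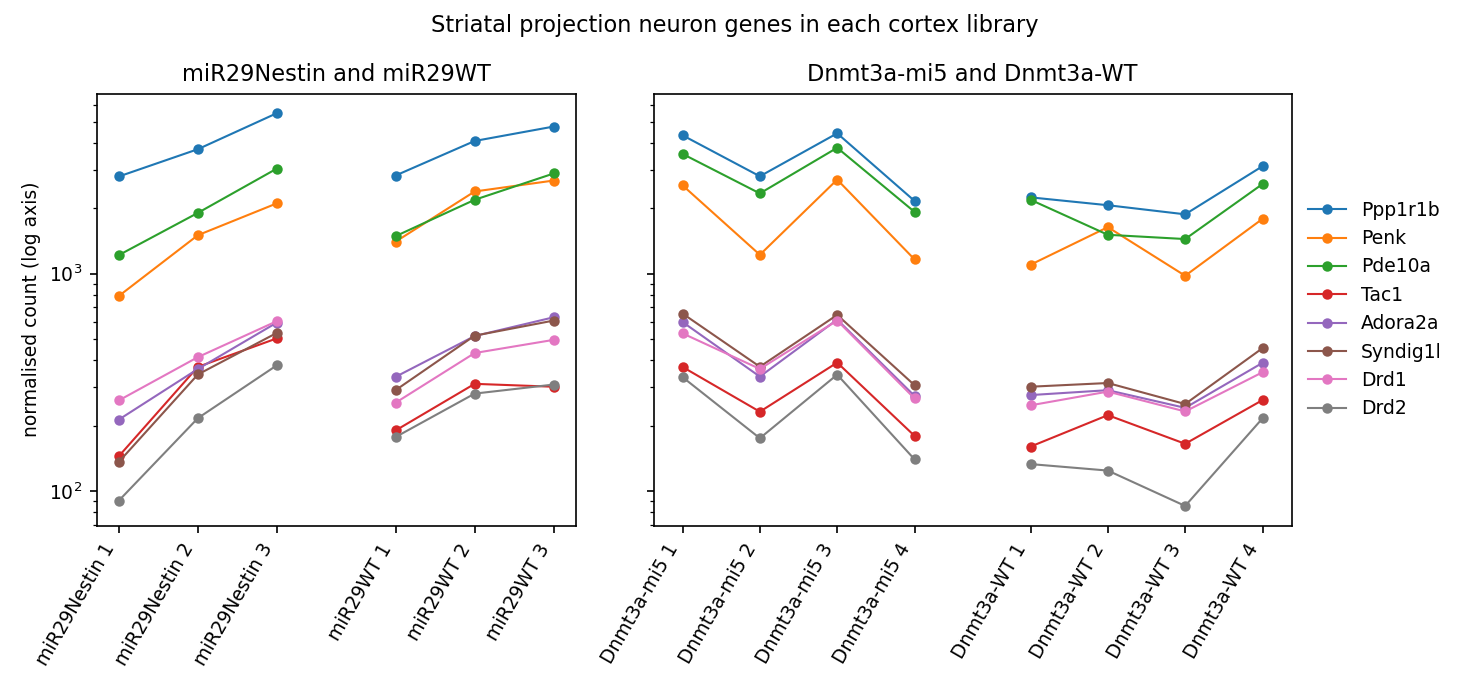
Normalised count of each of the 8 striatal genes (log axis) in every library, 1 point per library, with mutant libraries left of wild-type libraries and lines that only join the points of a gene within a group. Most curves of a group share their highest and lowest libraries, except between Dnmt3a-WT libraries 1 and 2, where Penk and Tac1 go up and Pde10a and Ppp1r1b down, and the ranges of mutant and wild type overlap for every gene.

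Among the genes common to both pathways, Ppp1r1b had the highest level. It encodes DARPP-32, the inhibitor of protein phosphatase 1 that dopamine signalling switches on (chr11:98348404-98357796, plus strand, here and below in GRCm38, GENCODE M21). Its level was 2804, 3745 and 5489.7 normalised counts in miR29Nestin libraries 1 to 3, against 2833, 4087 and 4763 in miR29WT libraries 1 to 3. The groups covered almost the same range, with library 1 lowest and library 3 highest in each, although replicates have no order of their own. In the Dnmt3a model it was 4341, 2810.5, 4432 and 2165 counts in Dnmt3a-mi5 libraries 1 to 4, against 2248, 2068, 1878 and 3127 in Dnmt3a-WT libraries 1 to 4. Dnmt3a-mi5 libraries 1 and 3 stood above all the others, while libraries 2 and 4 of that group lay within the wild-type range. The log2 differences, mutant minus wild type on the deposited scale, were 0.02 (SE 0.21, limma adjusted p = 0.959) in miR29Nestin and 0.47 (SE 0.20, adjusted p = 0.241) in Dnmt3a-mi5.

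Pde10a encodes a phosphodiesterase that breaks down cAMP and cGMP in these neurons (chr17:8525372-8986648, plus strand). It had 1218, 1906 and 3051 counts in miR29Nestin libraries 1 to 3, against 1489, 2190.4 and 2896 in miR29WT. For this gene, whose 3′ UTR holds the match to the miR-29 seed given above, the difference without miR-29 was −0.12 (SE 0.27, limma adjusted p = 0.794). In Dnmt3a-mi5 libraries 1 to 4 it had 3563, 2344, 3803 and 1927 counts, against 2191, 1511, 1445 and 2588 in Dnmt3a-WT. Again Dnmt3a-mi5 libraries 1 and 3 were highest and the rest overlapped, with a difference of 0.50 (SE 0.21, adjusted p = 0.222).

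Syndig1l encodes a membrane protein enriched in striatum (chr12:84677277-84698831, minus strand). Its counts were 136, 344 and 534 in miR29Nestin libraries 1 to 3, against 291, 519 and 609 in miR29WT. Each miR29Nestin library lay below the miR29WT library of the same number, but the groups overlapped, and the difference was −0.41 (SE 0.27, limma adjusted p = 0.33). With the replicate number as a block, it passed at the same size (SE 0.08, adjusted p = 0.00545). The Dnmt3a-mi5 libraries had 656, 373, 646 and 307 counts, against 302, 314, 251 and 454 in Dnmt3a-WT, a difference of 0.32 (SE 0.15, adjusted p = 0.278).

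Of the indirect-pathway genes, Penk, which encodes the precursor of the enkephalins, had the largest difference without miR-29 (chr4:4133531-4138819, minus strand). It stood at 789.6, 1505 and 2110.3 counts in miR29Nestin libraries 1 to 3, against 1405, 2392 and 2687 in miR29WT, a mean of 1468 ± 661 against 2161 ± 671 (SD, n = 3 each). The groups overlapped, although each miR29Nestin library lay below the miR29WT library of the same number. The difference of −0.55 (SE 0.28) was not called by limma (adjusted p = 0.196) and was called with the replicate number as a block (SE 0.07, adjusted p = 2.25e-04). In Dnmt3a-mi5 libraries Penk had 2554, 1223, 2713 and 1165 counts, against 1100.0, 1639, 979 and 1789 in Dnmt3a-WT. Here Dnmt3a-mi5 libraries 2 and 4 lay inside the wild-type range, and the difference was 0.34 (SE 0.24, adjusted p = 0.492).

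Drd2 encodes the D2 dopamine receptor, which lowers cAMP (chr9:49340627-49408177, plus strand). It had 90.1, 216 and 379 counts in miR29Nestin libraries 1 to 3, against 177, 281 and 309 in miR29WT, a difference of −0.17 (SE 0.23, limma adjusted p = 0.653). The highest and the lowest library of the table were both miR29Nestin libraries. Dnmt3a-mi5 libraries had 334, 175, 343 and 139.8 counts, against 133, 124, 85.3 and 216 in Dnmt3a-WT, a difference of 0.35 (SE 0.14, adjusted p = 0.222).

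Adora2a encodes an adenosine receptor that raises cAMP in the same cells (chr10:75316877-75334784, plus strand). Its 213, 364 and 596 counts in miR29Nestin libraries compared with 335, 517 and 630.4 in miR29WT. As for Syndig1l and Penk, each miR29Nestin library was below the miR29WT library of its number, and the difference of −0.28 (SE 0.22, limma adjusted p = 0.415) was called with the block (SE 0.07, adjusted p = 0.0173). In the Dnmt3a model the counts were 599.5, 336, 615 and 274 in Dnmt3a-mi5, against 276, 291, 241 and 389 in Dnmt3a-WT (difference 0.32, SE 0.15, adjusted p = 0.274).

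The direct-pathway genes had small positive differences without miR-29, neither of them called. Drd1, the D1 dopamine receptor, which raises cAMP (chr13:54051183-54055705, minus strand), had 261, 413 and 605 counts in miR29Nestin libraries 1 to 3, against 255, 431 and 496 in miR29WT. The difference was 0.07 (SE 0.20, limma adjusted p = 0.856). In Dnmt3a-mi5 libraries it had 531.5, 364, 609 and 267 counts, against 248, 287, 232 and 352 in Dnmt3a-WT, a difference of 0.35 (SE 0.13, adjusted p = 0.193). That was the smallest adjusted p of the 8 genes in this model.

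Tac1 encodes the precursor of substance P (chr6:7554879-7565834, plus strand). It had 144, 372.5 and 504 counts in miR29Nestin libraries, against 189.8, 311 and 302 in miR29WT, a difference of 0.16 (SE 0.23, limma adjusted p = 0.675). The difference rested on libraries 2 and 3, since library 1 was lower in miR29Nestin. Dnmt3a-mi5 libraries had 372, 232, 389.8 and 179 counts, against 159.9, 223, 165 and 262 in Dnmt3a-WT (0.24, SE 0.12, adjusted p = 0.311).

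Per kilobase of the longest coding transcript, the order of mean levels over all libraries was nearly the same in both models. Ppp1r1b and Penk led at 1976 and 1252 normalised counts per kb in the miR29 table and at 1441 and 1135 in the Dnmt3a table. Pde10a followed at 274 and 312, Tac1 at 247 and 201, Adora2a at 170.5 and 145, and Syndig1l at 161 and 164. The dopamine receptors came last, Drd1 at 115 and 101 and Drd2 at 95.0 and 76.1. Adora2a and Syndig1l exchanged places between the tables, and neighbours in this order, other than Penk and Pde10a, differed by less than the spread of each gene between libraries. The highest library was 1.96 to 4.48 times the lowest in the miR29 table and 2.36 to 4.02 times in the Dnmt3a table.

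As a group the 8 genes had a median log2 difference of −0.15 in miR29Nestin, with 3 positive and 5 negative, beside −0.01 over all genes tested. In Dnmt3a-mi5 the median was 0.34, with 8 positive, beside 0.00 over all genes. Single libraries set the sign of several differences in the miR29 model. Without miR29Nestin library 1, Drd2 (0.13) and Pde10a (0.17) were positive and Tac1 was called (0.49, limma adjusted p = 0.031). Without miR29Nestin library 3, Drd1 (−0.15), Ppp1r1b (−0.22) and Tac1 (−0.084) were negative and Penk was called (−0.83, adjusted p = 0.035). In Dnmt3a-mi5 all 8 differences stayed positive on leaving out each library, with Penk at 0.17 without Dnmt3a-mi5 library 3 and 0.51 without Dnmt3a-mi5 library 4, and Tac1 at 0.16 and 0.35 without the same libraries. The replicate numbers of the miR29 libraries were taken to pair them, which is an assumption. With the number as a block 3 of the 8 genes were called, Penk, Syndig1l and Adora2a, all lower. In that fit 25.3% of all genes tested were called, 11.7% higher and 13.6% lower. The 8 genes were low in library 1 and high in library 3 of both groups, so these 3 calls depend on the pairing. The other 5 were not called (adjusted p = 0.176 for Pde10a to 0.827 for Ppp1r1b). In the Dnmt3a model, with the removed effect as a term, 0 of 8 were called (adjusted p = 0.276 to 0.567), against 0.122% of all genes (0.0281% higher, 0.0937% lower), with 4 of 8 at an unadjusted p under 0.05. Within set 1 and within set 2 every difference was positive, 0.31 to 0.62 and 0.18 to 0.42. At an unadjusted limma p under 0.05 there were 7 of 8 within set 1, beside 736 of the 10670 genes tested. Within set 2 there were 0 of 8, beside 708 of the 10670. Since most libraries were high or low for all 8 genes at once, these differences are not 8 separate observations.

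Within each group the 8 genes moved together. After each group's mean was subtracted, the 28 pairs of genes had a median Pearson correlation of 0.979 (range 0.907 to 0.998) over the 6 miR29 libraries and of 0.954 (0.778 to 0.993) over the 8 Dnmt3a libraries. The median Spearman correlations were 1.00 and 0.881. Of the 28 pairs, 28 exceeded 0.9 in the miR29 table, beside 2.28% of pairs of any genes tested, and 24 did so in the Dnmt3a table, beside 0.950%. With deviations taken within group and set, the median of the Dnmt3a table was 0.962. These are descriptions over few libraries, in which all genes share the library and its normalisation. The 8 genes were chosen with earlier results known, so they are not an unselected set.

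The libraries could be ordered by this shared deviation. On the log2 scale the mean deviation of the 8 genes from their group means was −0.58, 0.05 and 0.53 in miR29Nestin libraries 1 to 3, and −0.40, 0.11 and 0.28 in miR29WT libraries 1 to 3. All 8 genes were below the group mean in library 1 of both groups and above it in library 3 of both. In the Dnmt3a model the deviations were 0.29, −0.22, 0.34 and −0.41 in Dnmt3a-mi5 libraries 1 to 4, and −0.05, −0.02, −0.22 and 0.28 in Dnmt3a-WT libraries 1 to 4. All 8 genes were on the same side of their group mean in 6 of these 8 libraries, the exceptions being Dnmt3a-WT libraries 1 and 2. Single genes ranged from −0.22 to 0.18 in Dnmt3a-WT library 1 and from −0.26 to 0.23 in Dnmt3a-WT library 2, with Pde10a and Penk on opposite sides.

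**Figure D2:**
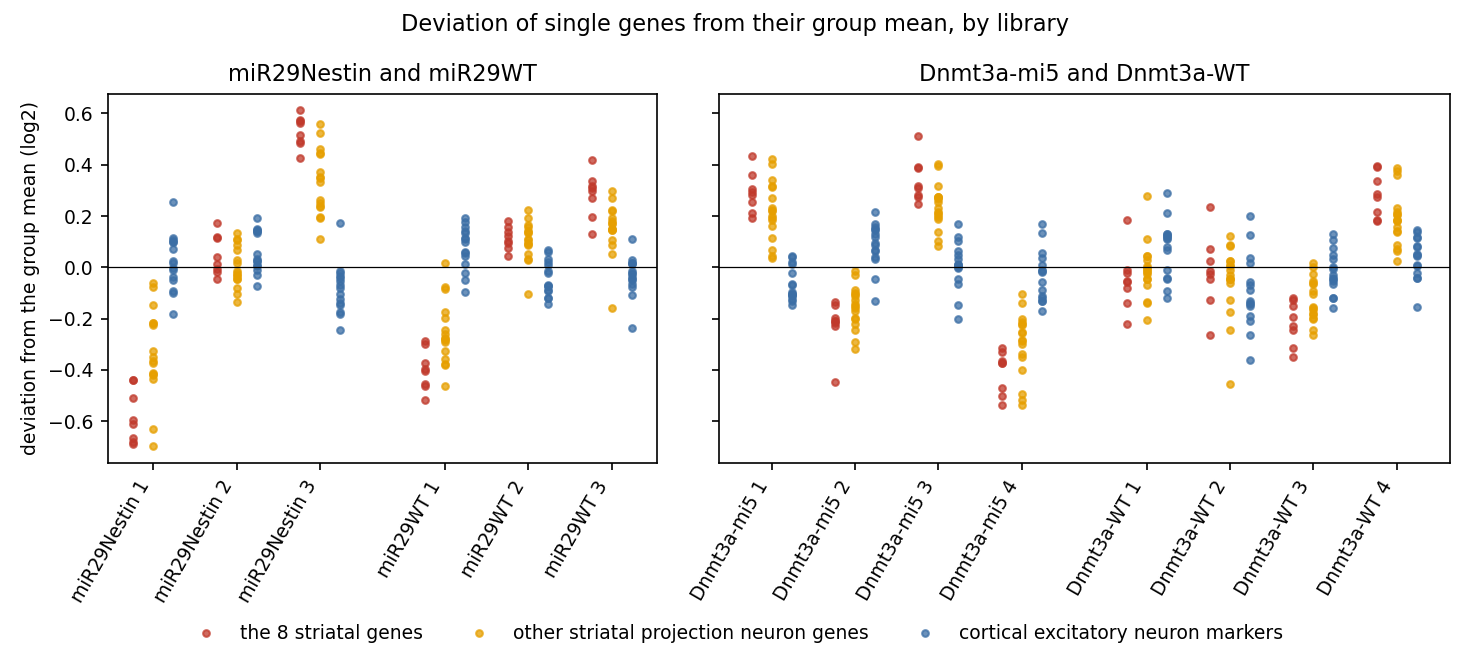
Deviation of single genes from their group mean (log2) in every library, with mutant libraries left of wild-type libraries, for the 8 striatal genes, the other striatal genes tested and markers of cortical excitatory neurons, 1 point per gene. Both striatal sets shift to the same side in most libraries. In miR29Nestin library 3, where the 8 genes are high, 14 of 15 excitatory markers lie below 0. In miR29WT library 1, where the 8 genes are low, 12 of 15 lie above it. Other libraries do not all go this way. With the 8 genes high, 10 of 15 lie above 0 in Dnmt3a-mi5 library 3, 11 in Dnmt3a-WT library 4 and 4 in Dnmt3a-mi5 library 1. With the 8 genes low, 8 lie above 0 in miR29Nestin library 1, 13 in Dnmt3a-mi5 library 2, 5 in Dnmt3a-mi5 library 4 and 6 in Dnmt3a-WT library 3.

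Summed over the 8 genes, the level was 5656, 8866 and 13270.1 normalised counts in miR29Nestin libraries, against 6975, 10727 and 12691 in miR29WT. It was 12952, 7856, 13550.2 and 6423 in Dnmt3a-mi5, against 6657, 6457, 5276 and 9177 in Dnmt3a-WT. The median striatal gene had a highest library 3.18 times the lowest in the miR29 table and 2.62 times in the Dnmt3a table. For markers of cortical excitatory neurons the same median was 1.57 and 1.54, and for all genes tested 1.31 and 1.23.

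Other genes known from striatal projection neurons followed the same pattern. Of a list of 24 such genes, 16 were tested in the miR29 table and 17 in the Dnmt3a table, and 13 in each table correlated above 0.9 with the mean deviation of the 8 genes (medians 0.975 and 0.956), beside 6.31% and 1.15% of all other genes tested.

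Rgs9, which shortens signalling of G proteins, correlated at 0.995 and 0.956, and Adcy5, the main striatal adenylyl cyclase, at 0.996 and 0.989. The calmodulin-dependent phosphodiesterase Pde1b correlated at 0.974 and 0.994, the retinoic acid receptor Rarb at 0.960 and 0.932, and the retinoid X receptor Rxrg at 0.949 and 0.960. Exceptions in the miR29 table were the muscarinic receptor Chrm4 (0.279), the dynorphin precursor Pdyn (0.657) and the sodium channel subunit Scn4b (0.888). In the Dnmt3a table Six3 (0.802), Scn4b (0.806), Chrm4 (0.881) and Actn2 (0.8996) fell below 0.9, while Pdyn stood at 0.956. Of these exceptions Chrm4, Pdyn and Scn4b are also made in cortical neurons, but so are Drd1, Ppp1r1b, Penk and Tac1. The part of cortical transcripts in the lower correlations was not tested.

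Over all 10602 genes tested in both models, without the 8, 31 correlated above 0.9 in both, and 11 of these were on the striatal list. Ranked by the smaller of the 2 correlations, Adcy5, Gnal, Sh3rf2, Pde1b and Cd4 were among the first 6. Gnal encodes the G protein alpha subunit that couples D1 and adenosine receptors to cAMP in striatum. Cd4, a receptor known from T cells and not on the list, correlated at 0.965 and 0.957. In the miR29 table alone the closest genes were Dnm3, Pcgf3, Secisbp2l, Zeb1, Etnk1 and 9430020K01Rik, none of them on the list. In the Dnmt3a table alone they included Jakmip1, Ago3, Pde1b, Gnal and Rasgrp2.

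**Figure D3:**
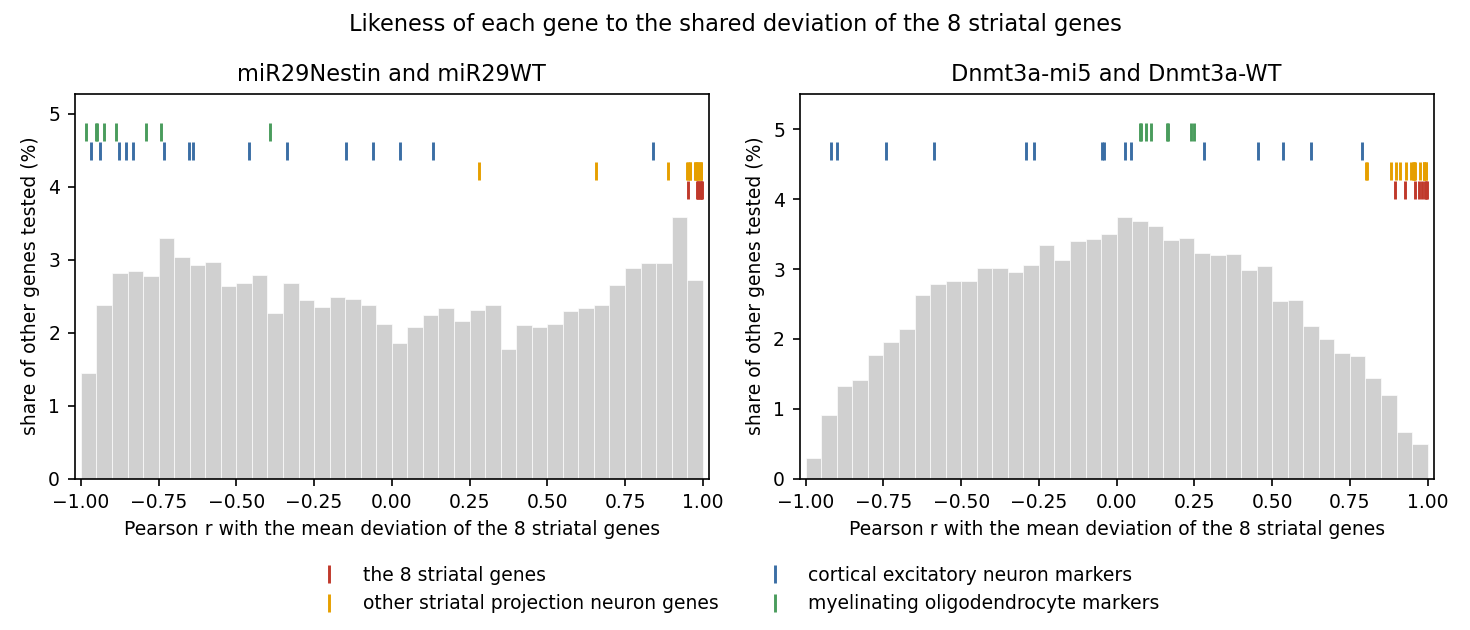
Share of all other genes tested (percent, grey bars) by their Pearson correlation with the mean deviation of the 8 striatal genes, with ticks above for single genes of 4 lists. The ticks of the other striatal genes crowd above 0.9 in both models, while myelin markers lie mostly toward the left end in the miR29 model and just right of 0 in the Dnmt3a model.

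Markers of other cell types, of the cortex and of tissues near it, did not share one pattern. In the miR29 table the median correlation with the 8 genes was −0.908 for 8 myelin markers, −0.641 for 15 excitatory markers and 0.191 for 15 interneuron markers. In the Dnmt3a table it was 0.136 for myelin, −0.04 for excitatory and 0.247 for interneuron markers, while the 3 tested hippocampus markers had −0.892. The summed hippocampus markers stood at 779.7, 972, 369.6 and 1611 counts in Dnmt3a-mi5 libraries 1 to 4, against 890.2, 733, 1516 and 396 in Dnmt3a-WT, and each group's lowest value was in the library with its highest striatal level.

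Claustrum markers, from a sheet of cells between cortex and striatum, had median correlations of 0.657 over 4 genes in the miR29 table and 0.271 over 5 in the Dnmt3a table, and thalamus markers −0.335 over 4 and 0.144 over 3. In miR29Nestin 2 of 4 claustrum markers and 1 of 3 hippocampus markers were lower by limma, and 1 of 2 olfactory bulb markers was higher. Of thalamus markers 0 of 4 were called, with 1 at an unadjusted p under 0.05. The shares over all genes tested were 9.02% higher, 10.0% lower and 33.0% at an unadjusted p under 0.05. In Dnmt3a-mi5 0 of 5 claustrum, 0 of 3 hippocampus, 0 of 3 thalamus and 0 of 3 choroid plexus markers were called. An unadjusted p under 0.05 was reached by 1 claustrum marker, beside 19.0% of all genes tested.

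Choroid plexus markers, from the tissue that secretes cerebrospinal fluid, summed to 6785, 4383, 335 and 14019 counts in Dnmt3a-mi5 libraries 1 to 4, against 129, 5464, 11968 and 474 in Dnmt3a-WT. Their levels spread more widely within groups than between them. In the miR29 table they summed to 136, 594 and 144 in miR29Nestin, against 459, 139.6 and 109.8 in miR29WT. Of cholinergic neuron markers 0 of 6 passed the filter, so no correlation was taken for them. They summed to 51.2, 87.2 and 110.5 counts in miR29Nestin libraries 1 to 3, against 38.4, 93.3 and 93.1 in miR29WT. The sums were 204.7, 85.2, 177.2 and 63.0 in Dnmt3a-mi5 libraries 1 to 4, against 75.3, 61.0, 75.8 and 101.1 in Dnmt3a-WT. The lowest library of each group was also the lowest for the summed striatal genes, except in Dnmt3a-WT (library 2 against 3). The highest was the same in miR29Nestin and Dnmt3a-WT, but not in miR29WT (2 against 3) or Dnmt3a-mi5 (1 against 3). No gene of these lists was at 0 in all libraries, and the part of neighbouring tissue in the striatal levels was not tested.

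Set against each other, the 8 genes kept steadier proportions than levels. For each gene the log2 normalised count minus the mean of the other 7 was taken in every library. Within groups the SD of this relative level was 0.07 to 0.26 in the miR29 table and 0.04 to 0.22 in the Dnmt3a table, while the SD of the level itself was 0.44 to 0.82 and 0.42 to 0.61. Such values are relative, so that a gene that is lower raises the values of the other 7.

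On this relative scale the miR29 groups did not overlap for 5 of the 8 genes. The share of all genes without overlap was not computed on this scale. On the scale of levels it was 37.3% in this table. Levels of the 8 genes varied more within groups than relative levels did, so that share is no background for this count. Penk stood at 1.31, 1.31 and 1.18 in miR29Nestin libraries 1 to 3, against 1.65, 1.75 and 1.72 in miR29WT. All miR29Nestin libraries were lower, by 0.44 in the mean. Tac1 stood at −1.49, −0.99 and −1.18 in miR29Nestin, against −1.65, −1.61 and −1.89 in miR29WT, 0.49 higher in the mean. Drd1 was likewise higher without overlap, by 0.36, and Syndig1l and Adora2a were lower without overlap, with mean differences of −0.45 and −0.21. Drd2, Pde10a and Ppp1r1b overlapped. In the Dnmt3a table groups overlapped for all 8.

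A limma fit was also made with the mean of the other 7 genes as a covariate (for genes outside the 8, the mean of all 8), added after the data had been seen. In it 5 of 8 genes were called in miR29Nestin, against 25.2% of all genes tested (11.9% higher, 13.3% lower). Penk (−0.42, adjusted p = 8.94e-05) and Syndig1l (−0.26, adjusted p = 0.00584) were lower. Tac1 (0.35, adjusted p = 0.011), Drd1 (0.22, adjusted p = 0.0179) and Ppp1r1b (0.18, adjusted p = 0.0271) were higher. These differences are relative to the other 7 genes, so that genes that are lower raise the rest. Without the covariate Tac1, Drd1 and Ppp1r1b stood at 0.16, 0.07 and 0.02 and were not called, so a higher level of these 3 is not shown. Penk and Syndig1l stood at −0.55 and −0.41 without it and were not called by limma either (adjusted p = 0.196 and 0.33). Both were called with the replicate number as a block, so a lower level of these genes rests on the assumed pairing. Adora2a (−0.15, adjusted p = 0.0757), Pde10a (0.07, adjusted p = 0.485) and Drd2 (−0.02, adjusted p = 0.871) were not called. For Dnmt3a-mi5 the same fit called 0 of 8 (adjusted p = 0.451 to 0.969), against 0.262% of all genes (0.0937% higher, 0.169% lower), with 0 of 8 at an unadjusted p under 0.05, and the differences shrank to between −0.20 for Penk and 0.10 for Pde10a.

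**Figure D4:**
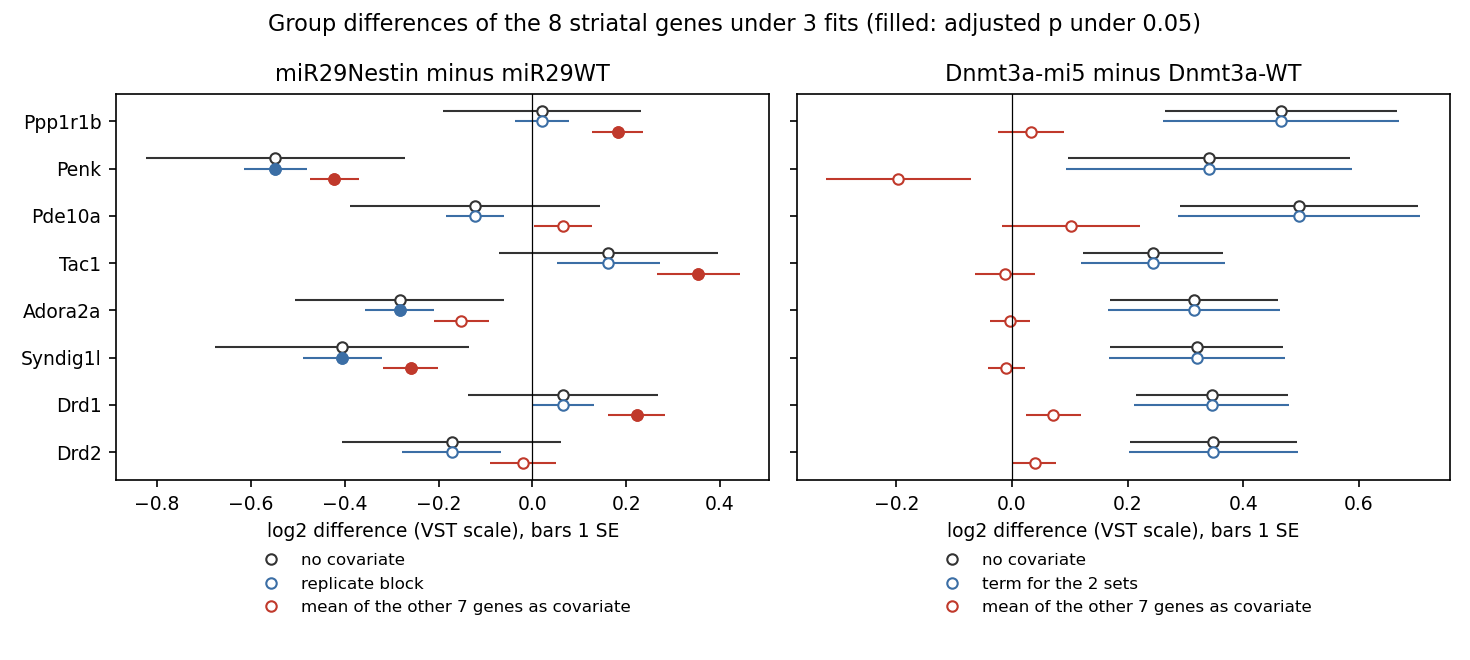
Log2 difference of each striatal gene, mutant minus wild type on the deposited scale, with bars of 1 SE, in fits without a covariate, with the replicate block or the term for the 2 sets, and with the mean of the other 7 genes as a covariate; filled points have an adjusted p under 0.05. In the miR29 model 3 genes are filled with the block and 5 with the covariate, and in the Dnmt3a model all points are open and those of the covariate fit lie near 0.

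Grouped by pathway, a grouping chosen after the values had been seen, the mean log2 level of Drd2, Adora2a and Penk minus that of Drd1 and Tac1 was 0.35, 0.32 and 0.50 in miR29Nestin libraries 1 to 3, against 0.99, 0.94 and 1.06 in miR29WT. The groups did not overlap. In the Dnmt3a model it was 0.85, 0.52, 0.77 and 0.70 in Dnmt3a-mi5, against 0.79, 0.62, 0.48 and 0.81 in Dnmt3a-WT, and the groups overlapped. It is given as a description, with no test. All of these genes are also transcribed in cortical cells, and the part of cortical transcripts in the ratio was not tested.

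**Figure D5:**
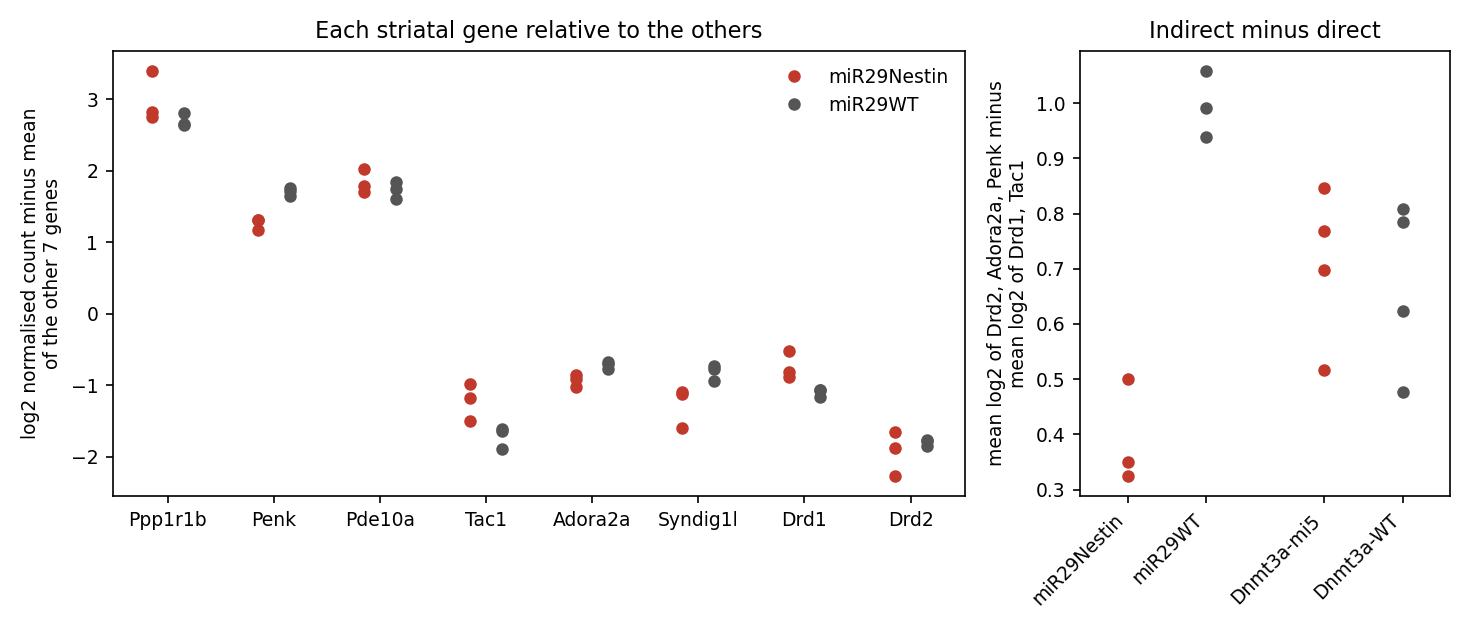
Left, log2 normalised count of each striatal gene minus the mean of the other 7 in miR29Nestin and miR29WT libraries, 1 point per library; right, mean log2 level of Drd2, Adora2a and Penk minus that of Drd1 and Tac1 in all 4 groups. In the miR29 model Penk, Adora2a and Syndig1l lie lower and Tac1 and Drd1 higher in miR29Nestin without overlap, and the Dnmt3a groups overlap in the right panel.

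Among the 16 other striatal genes tested in the miR29 table, 1 was called higher and 1 lower (median −0.07). Of all genes tested 9.02% were called higher and 10.0% lower, and the groups did not overlap for 37.3%. Gnal fell to 1879, 2179 and 2643 counts in miR29Nestin, against 2889, 3572 and 3614 in miR29WT, without overlap (difference −0.56, SE 0.11, limma adjusted p = 0.00551). Scn4b rose to 3545, 3664 and 4732, against 2236, 3034 and 3068, also without overlap (0.49, SE 0.12, adjusted p = 0.0172; 0.0843 with a robust variance prior). Pde1b (−0.24, limma adjusted p = 0.27), Rxrg (−0.24, adjusted p = 0.318), Adcy5 (−0.23, adjusted p = 0.407), Rarb (−0.07, adjusted p = 0.691) and Rgs9 (−0.06, adjusted p = 0.906) were not called. With the replicate number as a block, 7 were called lower, among them Gnal, Actn2, Gng7, Adcy5, Pde1b and Rxrg, and Scn4b was called higher. In that fit 13.6% of all genes tested were called lower and 11.7% higher.

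In Dnmt3a-mi5 0 of the 17 other striatal genes were called by limma, 9 had an unadjusted p under 0.05, and all 17 differences were positive (median 0.29). Of all genes tested 19.0% had an unadjusted p under 0.05 and 51.3% a positive difference. Scn4b had the largest of those named, 0.60 (SE 0.21, adjusted p = 0.161), with 3825, 2676, 3823 and 2021 counts in Dnmt3a-mi5 libraries 1 to 4, against 2328, 1258, 1590.2 and 2481 in Dnmt3a-WT. Dnmt3a-mi5 libraries 1 and 3 stood apart here too, as they did for the 8 genes. All 17 genes were above their group mean in those 2 libraries and below it in Dnmt3a-mi5 libraries 2 and 4. Their differences are therefore not separate observations.

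Of 34 signalling genes around dopamine and cAMP tested, 2 were higher and 11 lower in miR29Nestin (median −0.08). The shares over all genes tested were 9.02% higher and 10.0% lower. Adcy1, the calcium-stimulated adenylyl cyclase, had the largest difference of those named (−1.26, limma adjusted p = 7.67e-07). Ppp1r1a, a phosphatase inhibitor related to DARPP-32, was lower too (−0.56, adjusted p = 1.12e-04). The regulatory subunits of protein kinase A Prkar1b (−0.30, adjusted p = 0.00241) and Prkar2b (−0.47, adjusted p = 0.00296) were also lower. Prkaca, its catalytic subunit, was higher (0.30, adjusted p = 0.00331). The list's median correlation with the 8 genes was 0.457, and Adcy1 correlated at 0.334. In Dnmt3a-mi5 1 of 34 was lower, the phosphatase subunit Ppp1cb (−0.19, adjusted p = 0.0346), a call lost with the set as a term (adjusted p = 0.112) and on leaving out any library but Dnmt3a-WT library 2 (adjusted p = 0.0553 to 0.11).

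Of 14 neuropeptide and receptor genes tested in the miR29 table, 2 were higher and 3 lower, beside 9.02% and 10.0% of all genes tested. Cpe, which trims peptide precursors, was higher (0.37, limma adjusted p = 1.32e-04), and Pcsk2, a protease that cuts them, was lower (−0.24, adjusted p = 0.00668). The delta opioid receptor Oprd1, a receptor of enkephalin, was higher (0.31, adjusted p = 0.0434), and the peptides Sst (−0.48, adjusted p = 0.00781) and Tac2 (−0.30, adjusted p = 0.0403) were lower. Oprd1 lost its call without miR29Nestin library 2 or 3 or miR29WT library 1 or 2 (adjusted p = 0.104 to 0.132), and Tac2 without miR29Nestin library 1 or 3 or miR29WT library 2 or 3 (adjusted p = 0.0998 to 0.139). In Dnmt3a-mi5 0 of 11 were called, with 2 at an unadjusted p under 0.05, beside 19.0% of all genes tested.

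Markers of cortical neurons were counted in the same way, beside 9.02% higher and 10.0% lower of all genes tested in miR29Nestin. In miR29Nestin 7 of 15 excitatory markers were lower and 0 higher, with Slc17a7, the vesicular glutamate transporter, at −0.27 (limma adjusted p = 0.00294). Of 15 interneuron markers 3 were higher and 6 lower, with Pvalb, the calcium buffer of fast-spiking cells, at 0.78 (adjusted p = 4.29e-05), Reln, a secreted layering protein, at −0.72 (adjusted p = 1.20e-04) and Gad2, which makes GABA, at −0.52 (adjusted p = 0.00274). Gad2 correlated at 0.941 with the 8 genes in that table. Striatal projection neurons are GABAergic as well, so Gad2 does not mark cortical interneurons alone. In Dnmt3a-mi5 0 of 15 excitatory and 0 of 13 interneuron markers were called by limma. At an unadjusted p under 0.05 there were 3 and 4, beside 19.0% of all genes tested. Of 8 myelin markers 3 were higher in miR29Nestin, among them Mobp (0.33, adjusted p = 0.00398) and Mbp (0.21, adjusted p = 0.0113), Mbp not being called without miR29WT library 2 (adjusted p = 0.0561).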

How the data were processed

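Cortical RNA of 3 miR29Nestin, 3 miR29WT, 4 Dnmt3a-mi5 and 4 Dnmt3a-WT mice was analysed from 2 tables, and 0 columns of values were left out. The authors deposited log2 values from the variance-stabilising transformation of DESeq2, as the names of the deposited tables say. The miR29 libraries were made with TruSeq reagents and the Dnmt3a libraries with KAPA reagents, both stranded, per the labels' protocols. Tools given in the submitters' processing notes are cutadapt, STAR, Salmon and DESeq2, and the builds are hg19 and mm9, without roles. Each table was analysed alone. Normalised counts were recovered by inverting the transformation from its value at 0 reads (6.59 and 7.63 on the log2 scale). Among low values of the miR29 table, 87.2 to 89.9% came within 0.05 of a whole read, which gave the depths. In the Dnmt3a table, whose replicate names repeat, each gene had the same mean in libraries 1 and 2 of both groups as in libraries 3 and 4 of both, within 5.5e-09 (next best split 0.538), and 2546 genes had values below that at 0 reads, so its counts are approximate.

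A gene was tested when its mean exceeded the table's lowest value by 1 or more on the log2 scale (about 48.0 and 80.1 normalised counts). Fits used limma 3.58.1 in R 4.3.3 with a trended prior and Benjamini-Hochberg adjustment over all genes tested, and a call needs an adjusted p under 0.05. In the miR29 model same-numbered libraries deviated together (correlations 0.335, 0.204 and 0.186, all over 0.1), and the numbers were taken to pair them. Of unlike numbers, miR29Nestin library 3 with miR29WT library 2 also passed, at 0.178, so the pairing is an assumption. Correlations used deviations from group means. Positions, transcript lengths and 3′ UTRs came from GENCODE M21 (GRCm38). Per-kilobase levels divide by the longest coding transcript. Tables were handled with Python 3.11.15.

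The 8 genes and all lists were chosen with earlier results of these data known. Besides the 8, the text names up to 4 genes per list with the smallest p, Rgs9, Rarb, Rxrg, Adcy5 and Pde1b, and the 6 genes most like the 8 in each table and over both. Some genes that this rule names are not reported here. Gad2, Chrm4, Pdyn and others outside that rule were named after their values were seen. The alternatives were the replicate block, the set as a term or each set alone, other filters, other scales and leaving out each library, and, added after the data were seen, the mean of the striatal genes as a covariate.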

Additional observations from a re-analysis of the deposited data

How the results depend on the processing

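In miR29Nestin against miR29WT 2289 genes were called, 848 with no filter on low values and 1384 to 2313 on leaving out each library (1474 without miR29Nestin library 2, 1384 without miR29WT library 2, 1419 without miR29WT library 3). Of the striatal genes 0 were called, 3 with the replicate block, 5 with their mean as a covariate, and 0 to 1 on leaving out each library. Tac1 was called without miR29Nestin library 1 (0.49, limma adjusted p = 0.031) and Penk without miR29Nestin library 3 (−0.83, adjusted p = 0.035). On leaving out each library Drd1 ranged from −0.15 to 0.28, Drd2 from −0.46 to 0.13, Pde10a from −0.43 to 0.17, Ppp1r1b from −0.22 to 0.24, Tac1 from −0.084 to 0.49, Adora2a from −0.54 to −0.03, Penk from −0.83 to −0.21 and Syndig1l from −0.69 to −0.06. The lower ends came without miR29Nestin library 3 and the upper ends without miR29Nestin library 1. Signs also changed without miR29WT library 1 (Drd1 −0.13, Ppp1r1b −0.18) and without miR29WT library 3 (Pde10a 0.09). With no filter 14 of the 18 called genes named from the lists were not called, all keeping their sign. With the covariate Pde10a reversed to 0.065. The block moved no other call of the 8. In Dnmt3a-mi5 against Dnmt3a-WT 85 genes were called, 38 with no filter, 13 with the set as a term, 0 by limma within set 1 (736 at an unadjusted p under 0.05), 4 within set 2, 28 with the covariate, and 9 (without Dnmt3a-WT library 4) to 176 (without Dnmt3a-WT library 2) on leaving out each library. The striatal genes were never called there and stayed positive on leaving out each library (Drd1 0.24 to 0.47, Drd2 0.26 to 0.46, Adora2a 0.21 to 0.44, Pde10a 0.37 to 0.65, Ppp1r1b 0.34 to 0.64, Penk 0.17 to 0.51, Tac1 0.16 to 0.35, Syndig1l 0.22 to 0.44) and under the other settings except with the covariate (Adora2a −0.0037, Penk −0.20, Tac1 −0.012, Syndig1l −0.0097). The cause of these shifts was not tested. The median correlation of the 28 pairs was 0.974 to 0.990 in the miR29 table and 0.941 to 0.980 in the Dnmt3a table on leaving out each library. Levels whose highest library was 1.52 to 4.21 times the lowest of its group left SEs of 0.20 to 0.28 in the miR29 model and 0.12 to 0.24 in the Dnmt3a model, and the unknown depth of the Dnmt3a libraries leaves their counting error unknown.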
